A study of Caenorhabditis elegans with 24 samples.

Results

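The genes described here keep the germline stem cells of Caenorhabditis elegans dividing and carry its germ cells through meiosis. They were taken from a list of 38 gene symbols that named proliferation, synapsis and recombination genes. The list is defined by gene function and no measured value enters it, although it was drawn up with earlier results of these data known. Of these symbols 37 were found, among 46904 gene identifiers in the tables, and all 37 passed the filter on low counts and were tested. The symbol rad-54 matched no gene by that name, and 3 genes that carry it as a stem are described separately.

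In the hermaphrodite gonad, a somatic niche cell signals through a Notch receptor to keep germ cells at the distal end dividing, and RNA-binding proteins decide when their daughters enter meiosis. Meiotic chromosomes then build a protein axis on cohesin, find their partner through pairing centres at one chromosome end, and are joined along their length by the synaptonemal complex. The enzyme SPO-11 breaks the DNA, the breaks are repaired by strand exchange, and each chromosome pair keeps a crossover that holds it together until division. In the adult worm most germ cells lie in this one organ, but which tissue the transcripts of these genes came from was not measured here.

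Whole worms of 2 strains were compared on adult days 1, 4, 7 and 11, with 3 libraries for each strain and age, 24 in all. N2 is the wild type. The strain CF1041 carries daf-2(e1370), a reduced-function allele of the insulin/IGF-1 receptor gene that lengthens life, and is called daf-2 below. Embryos of both strains were collected by bleaching and held in buffer for 16 hours at 20°C, and the animals were then fed OP50 bacteria. Every group, day 1 included, was given 50 µM FUDR from the L4 larval stage on. FUDR blocks DNA synthesis and was used to keep progeny from hatching, so no group shows a germline that was free of it. The design asks how expression changes with age in each strain.

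Each library held between 20660999 and 32655703 expected counts. The 8 libraries numbered 3, one in each group, stood apart from the rest. The share of ribosomal RNA in them was 7.92% to 14.55%, while it was 5.59% to 8.83% for number 1 and 3.9% to 9.62% for number 2. In all 8 groups the library numbered 3 had the lowest summed level of the 37 genes, the lowest summed oocyte and eggshell markers, and the highest summed zygotic embryo markers. Summed body muscle markers were also lowest in the library numbered 3 in all 8 groups. Nothing in the labels tells if libraries of one group are separate cultures, and p-values here measure only the spread between samples, which may be technical. Levels below are CPM, counts relative to the TMM-scaled total of the library, and changes are log2 fold changes with their standard error, 3 libraries against 3.

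The marker genes place a germline in every library. The 13 germline genes outside the list were detected in all 24 libraries, with the RNA helicase gene glh-3 between 51.6 and 125.6 CPM. All 17 oocyte and eggshell markers were detected in all 24 as well, led by cbd-1, a gene of the eggshell's outer layer, between 1250 and 3789 CPM. Sperm markers were scarce, since 12 of 21 were at 0 in at least 1 library and the highest value of any was 36.4 CPM, for the sperm calcium channel gene spe-41.

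Levels per length spread widely at day 1 in N2. The P granule gene pgl-1 had the highest level, 235.3 ± 74.3 CPM per kilobase of exon (SD, n = 3), and glh-1 followed with 170.5 ± 49.7. The axis genes him-3 (121 ± 19.3) and htp-1 (117 ± 5.35) came next and did not differ from each other beyond their spread. At the other end were the cohesin gene coh-4 (16.95 ± 6.24) and the kinase gene chk-2 (12.9 ± 1.74), whose ranges also overlapped. The lowest count of any of the 37 genes in a library was 265, for him-5.

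Between day 1 and day 11, a part of the germline stem cell and meiosis genes fell in each strain. In N2, 23 of the 37 fell and none rose, where 19.2% of the 16698 genes tested fell and 22.5% rose. In daf-2, 14 fell and none rose, against 18% and 22.3% of all genes. The median log2 change of the 37 was -0.69 in N2 and -0.50 in daf-2, while that of all genes was 0.10 and 0.09. In whole worms, fewer germ cells and less of these transcripts per germ cell cannot be told apart.

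All 14 genes that fell in daf-2 were among the 23 that fell in N2, of which they made up 60.9%. The groups of libraries did not overlap for 17 of the 37 genes in N2, all lower at day 11, against 20.6% of all genes in that direction, and for 14 in daf-2, against 20%. At least 2-fold falls passed the test for 13 genes in N2 and for 4 in daf-2, and no share of all genes is given at that size. Compared library by library within each number, 34, 36 and 33 of the 37 were lower at day 11 in N2. Of all genes tested, 45.85%, 43.93% and 46.71% were lower in the same pairs. In daf-2, 35, 35 and 28 were lower, against 47.51%, 47.08% and 43.54% of all genes. The count of 23 that fell in N2 dropped to 15, 14 and 12 without day 1 library 1, day 1 library 2 and day 11 library 3. It was 30 with a correction for transcript length, which was added after seeing the data and also shifts whole libraries. With the library number as a block it was 32 in N2 and 28 in daf-2, and without the libraries numbered 3 it was 33 and 32. The shares of all genes that passed the test are from the fit with all libraries and no block. They do not belong to the counts from these other fits.

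**Figure D1:**
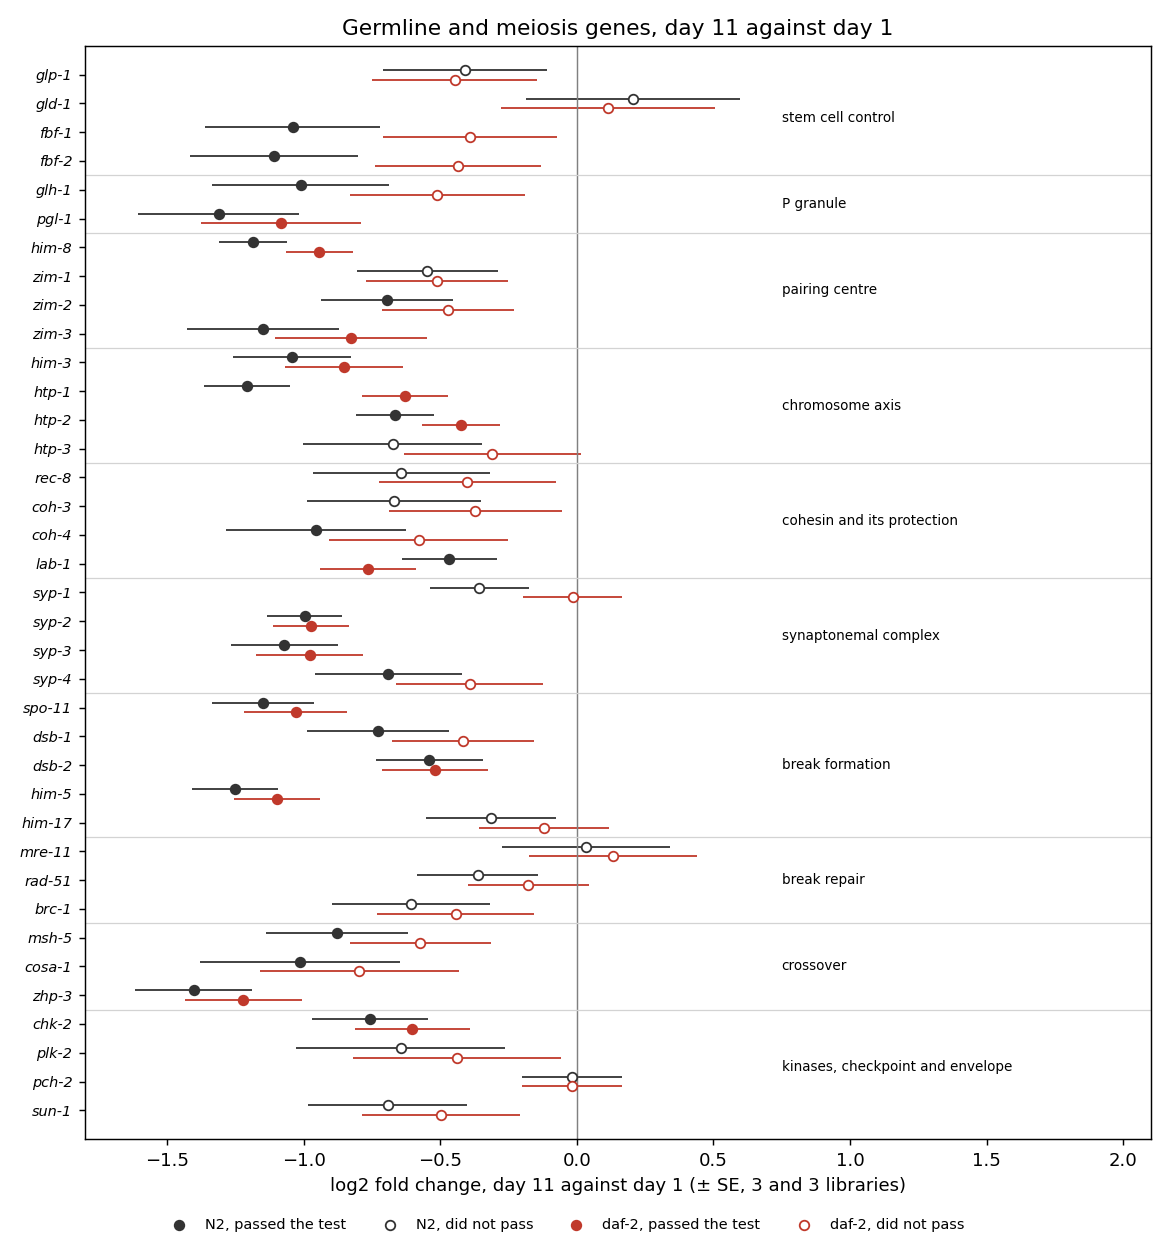
Log2 fold change (x axis, ± SE) from day 1 to day 11 of the 37 genes (y axis, ordered by role), in N2 (dark) and daf-2 (red), with filled points for changes that passed the test. Nearly all points lie left of 0, with zhp-3 farthest at -1.40 in N2, while gld-1, mre-11 and pch-2 lie near 0.

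Among the genes of stem cell control, the pair that represses meiotic entry fell in N2, and the Notch receptor and its downstream opponent did not pass the test. The gene fbf-1 encodes a PUF protein that binds and silences messenger RNAs in the stem cells. It stood at 62.2, 63.4 and 37.4 CPM in the N2 day 1 libraries and at 32.8, 26.9 and 19.6 CPM at day 11 (log2 fold change -1.04 ± 0.32, adjusted p = 0.0133). Its near-identical neighbour fbf-2 went from 70.1, 62.0 and 41.2 CPM to 35.6, 27.5 and 17.2 CPM (-1.11 ± 0.31, adjusted p = 0.0067). For both genes every day 11 library was below every day 1 library, and in both ages the library numbered 3 was the lowest.

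In daf-2 the same pair had smaller values that did not pass. Levels of fbf-1 were 56.7, 55.6 and 27.3 CPM at day 1 and 40.0, 42.4 and 24.1 CPM at day 11 (-0.39 ± 0.32, adjusted p = 0.342). Those of fbf-2 were 58.3, 53.1 and 34.5 CPM and then 40.3, 40.9 and 26.8 CPM (-0.44 ± 0.30, adjusted p = 0.264). The ages overlapped for both genes, and with the library number as a block both passed (adjusted p = 0.00559 and 0.00385). Reads from fbf-1 and fbf-2 may be split between the copies, so the value of each is uncertain.

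The Notch receptor gene glp-1 was one of the most abundant of the 37, with 445, 514 and 253 CPM in N2 at day 1 and 346, 283 and 284 CPM at day 11. Its change did not pass in N2 (-0.41 ± 0.30, adjusted p = 0.289) or in daf-2 (-0.45 ± 0.30, adjusted p = 0.245, or 0.0498 with the block). The gene gld-1, whose RNA-binding protein drives cells into meiosis and represses many messages there, had the largest standard error of the 37. It ranged from 98.2 to 208 CPM in N2 at day 1 and from 112 to 265 CPM at day 11 (0.21 ± 0.39, adjusted p = 0.7), and its highest library was a daf-2 day 7 library at 266.5 CPM. No order by age was visible in gld-1, since each age overlapped the others in N2.

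Both P granule genes fell in N2, and pgl-1 also in daf-2. P granules are RNA and protein bodies around germ cell nuclei. Their core component gene pgl-1 (WBGene00003992, chromosome IV, 6974441 to 6977318, minus strand) went from 639.6, 739 and 380.5 CPM at day 1 in N2 to 272, 237 and 201 CPM at day 11 (-1.31 ± 0.29, adjusted p = 0.00138). In daf-2 it went from 616, 654 and 298 CPM to 272, 272 and 196 CPM (-1.08 ± 0.29, adjusted p = 0.00609). The ages did not overlap in either strain, although the day 1 library numbered 3 lay far below the other two. The Vasa-related helicase gene glh-1 went from 562, 541 and 313.5 CPM to 283, 259 and 161 CPM in N2 (-1.01 ± 0.32, adjusted p = 0.0166). In daf-2 its change of -0.51 ± 0.32 did not pass (adjusted p = 0.213, or 0.000712 with the block).

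Pairing centre genes encode zinc finger proteins that bind one end of each chromosome, HIM-8 on the X chromosome and the ZIM proteins on the autosomes. The 4 genes lie side by side on chromosome IV of WBcel235, with zim-1 from 10547086 and him-8 ending at 10563974. The gene him-8 fell steadily and with little scatter in N2. In N2 it stood at 64.8, 65.8 and 77.4 CPM at day 1, at 47.7, 46.1 and 55.3 CPM at day 4, at 35.1, 32.9 and 34.0 CPM at day 7 and at 31.9, 31.2 and 28.3 CPM at day 11. Every library of each age lay below every library of the age before it. In daf-2 its means were 70.75, 46.24, 36.94 and 36.84 CPM at days 1, 4, 7 and 11, nearly level after day 7. The day 11 change was -1.19 ± 0.12 in N2 (adjusted p = 3.42e-07) and -0.94 ± 0.12 in daf-2 (adjusted p = 6.6e-06).

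Its neighbour zim-3 fell in both strains (-1.15 ± 0.28, adjusted p = 0.00258, in N2 and -0.83 ± 0.28, adjusted p = 0.0226, in daf-2). The gene zim-2 fell in N2 (-0.69 ± 0.24, adjusted p = 0.0263), where its highest day 11 library lay above its lowest day 1 library (47.05 CPM, numbered 3). The value of zim-1 did not pass in either strain (-0.55 ± 0.26 in N2 and -0.51 ± 0.26 in daf-2) and did pass with the block (adjusted p = 0.000747 and 0.00131). The genes zim-1 and zim-2 share 223 exon bases on the same strand, so reads there can be counted for either.

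The chromosome axis is built from HORMA domain proteins, and 3 of its 4 genes fell in both strains. The gene htp-1 (WBGene00002032, chromosome IV, 5390189 to 5391557, minus strand) went from 150.8, 141.6 and 138 CPM at day 1 in N2 to 72.2, 61.3 and 52.9 CPM at day 11 (-1.21 ± 0.16, adjusted p = 5.06e-06). In daf-2 it went from 123, 126 and 119.2 CPM to 81.6, 89.8 and 66.9 CPM (-0.63 ± 0.16, adjusted p = 0.00343). The day 1 libraries were tight in both strains, and the ages did not overlap. The close copy htp-2 fell by less (-0.66 ± 0.14, adjusted p = 0.000892, in N2 and -0.42 ± 0.14, adjusted p = 0.022, in daf-2), and the counts of this pair may be shared between them. The gene him-3 fell by 1.04 ± 0.22 in N2 and by 0.85 ± 0.22 in daf-2 on the log2 scale (adjusted p = 0.000694 and 0.00383). The value of htp-3, which anchors the other axis proteins to cohesin, did not pass (-0.67 ± 0.33 and -0.31 ± 0.32, adjusted p = 0.103 and 0.47), and in N2 it passed with the block (adjusted p = 0.000259).

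Of the meiotic cohesin genes and their protector, 2 of 4 fell in N2 and 1 in daf-2. The kleisin subunit gene rec-8 was not called in N2 (-0.64 ± 0.33, adjusted p = 0.119, or 0.00212 with the block) or in daf-2 (-0.40 ± 0.32, adjusted p = 0.339). Its relatives coh-3 (-0.67 ± 0.32, adjusted p = 0.0969, or 0.000872 with the block) and coh-4 (-0.95 ± 0.33, adjusted p = 0.025) lay on either side of the threshold in N2. The gene coh-4 shares 327 exon bases on the same strand with another gene, Y45G5AM.7, and close similarity to coh-3 adds to the uncertainty of both. The gene lab-1, whose product guards cohesion on one arm of each chromosome, was highest in the libraries numbered 3 at days 1, 4 and 11 of N2. Its N2 libraries were at 39.1, 46.6 and 59.7 CPM at day 1, at 51.9, 58.0 and 61.4 CPM at day 4, and at 33.6, 34.3 and 37.4 CPM at day 11. The day 4 values were the highest of its N2 means, and the day 11 fall (-0.47 ± 0.17, adjusted p = 0.0374) was called in only 6 of 17 other settings. In daf-2 it was at 40.4, 48.9 and 69.5 CPM at day 1, at 41.3, 54.4 and 46.45 CPM at day 4 and at 31.7, 28.6 and 33.1 CPM at day 11. That fall was -0.76 ± 0.18 (adjusted p = 0.00176), and it was called in all 17.

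The synaptonemal complex links paired chromosomes, and its genes syp-2 and syp-3 fell in both strains. The gene syp-2 was at 71.3, 86.1 and 84.8 CPM at day 1 in N2, and its mean was higher at day 4 (93.7, 95.6 and 81.1 CPM). It then fell to 44.4, 36.3 and 40.7 CPM at day 11 (-0.996 ± 0.14 against day 1, adjusted p = 9.85e-06). Its daf-2 libraries fell from 65.1, 76.9 and 87.7 CPM to 40.8, 37.9 and 38.4 CPM (-0.97 ± 0.14, adjusted p = 1.65e-05). The change of syp-3 was -1.07 ± 0.20 in N2 and -0.98 ± 0.20 in daf-2 (adjusted p = 0.000199 and 0.000533). The gene syp-4 fell in N2 (-0.69 ± 0.27, adjusted p = 0.0447), with ages that overlapped, and its daf-2 value of -0.39 ± 0.27 did not pass (adjusted p = 0.252, or 0.0161 with the block). The value of syp-1 was -0.36 ± 0.18 in N2 (adjusted p = 0.12, or 0.0193 with the block) and -0.01 ± 0.18 in daf-2 (adjusted p = 0.954). It shares 517 exon bases on the same strand with F13A7.14.

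Break formation held some of the steepest falls. The gene spo-11 (WBGene00004985, chromosome IV, 11123133 to 11124862, minus strand), which encodes the enzyme that cuts the DNA, was at 71.1, 96.8 and 116 CPM at day 1 in N2 and at 46.5, 38.9 and 42.9 CPM at day 11 (-1.15 ± 0.19, adjusted p = 6.31e-05). In daf-2 its libraries were at 64.5, 76.3 and 116 CPM and then at 41.8, 40.1 and 43.8 CPM (-1.03 ± 0.19, adjusted p = 0.000229). Here the libraries numbered 3 were the highest at day 1 in both strains, the opposite of the summed level, and the ages still did not overlap. The gene him-5 (WBGene00001864, chromosome V, 14090426 to 14092454, plus strand), which promotes breaks chiefly on the X chromosome, went from 23.6, 27.96 and 29.6 CPM to 12.5, 11.1 and 10.5 CPM in N2 (-1.25 ± 0.16, adjusted p = 3.3e-06). In daf-2 it went from 24.6, 27.4 and 33.2 CPM to 14.5, 14.3 and 10.9 CPM (-1.10 ± 0.16, adjusted p = 1.79e-05), again with no overlap.

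Other break-promoting genes had smaller values. The gene dsb-2 fell in both strains (-0.54 ± 0.19, adjusted p = 0.0315, and -0.52 ± 0.19, adjusted p = 0.0388), each called in 9 of 17 other settings. Its relative dsb-1 fell in N2 (-0.73 ± 0.26, adjusted p = 0.0299), and its daf-2 value of -0.42 ± 0.26 did not pass (adjusted p = 0.209, or 0.00806 with the block). The chromatin protein gene him-17 stood at 278, 299 and 169 CPM in N2 at day 1 and at 229, 190.4 and 180.4 CPM at day 11 and did not pass (-0.31 ± 0.24 in N2 and -0.12 ± 0.24 in daf-2).

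None of the 3 genes of break repair passed edgeR's test in either strain. At an unadjusted p under 0.05 there was 1 (brc-1 in N2) and none in daf-2, and DESeq2 called none in either. The nuclease gene mre-11, which trims broken ends, was at 217.5, 237 and 109 CPM at day 1 in N2 and at 218, 192 and 166 CPM at day 11 (0.03 ± 0.31, adjusted p = 0.943). In daf-2 its value was 0.13 ± 0.31 (adjusted p = 0.754). The spread at day 1 came from the library numbered 3, which held less than any other library of either age. The strand exchange gene rad-51 had a value of -0.36 ± 0.22 in N2 (adjusted p = 0.198, or 0.0206 with the block) and of -0.18 ± 0.22 in daf-2. The gene brc-1, the worm relative of BRCA1, had values of -0.61 ± 0.29 and -0.44 ± 0.29, which did not pass and did with the block (adjusted p = 0.00382 and 0.0252).

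The symbol stem rad-54 is carried by 3 annotated genes, and which of them the list meant was not settled here. The gene rad-54.L fell from a mean of 44.9 to 20.6 CPM in N2 (-1.13 ± 0.23, adjusted p = 0.00054) and from 42.9 to 24.8 CPM in daf-2 (-0.79 ± 0.23, adjusted p = 0.00892). The values of rad-54.L2 (-0.40 ± 0.18 in N2) and rad-54.B (-0.21 ± 0.27 in N2) did not pass.

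All 3 crossover genes fell in N2, and zhp-3 fell the most of the 37 in both strains. ZHP-3 is a RING finger protein that marks the sites where crossovers form. Its gene (WBGene00006976, chromosome I, 8529376 to 8531342, minus strand) went from 66.8, 58.0 and 42.3 CPM at day 1 in N2 to 24.9, 19.9 and 18.4 CPM at day 11 (-1.40 ± 0.21, adjusted p = 3.04e-05). In daf-2 it went from 53.2, 57.2 and 44.0 CPM to 25.9, 22.2 and 18.2 CPM (-1.22 ± 0.21, adjusted p = 0.000156). Every day 11 library of either strain was below every day 1 library. The cyclin-like crossover gene cosa-1 fell in N2 (-1.01 ± 0.37, adjusted p = 0.0315), although its lowest day 1 library (14.1 CPM, numbered 3) lay within the day 11 range of 11.1 to 16.2 CPM. The mismatch repair relative msh-5 fell in N2 (-0.88 ± 0.26, adjusted p = 0.0102). In daf-2 neither passed (-0.80 ± 0.36 for cosa-1 and -0.57 ± 0.26 for msh-5), and both did with the block (adjusted p = 0.000646 and 0.000624).

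Among the kinases, the checkpoint and the nuclear envelope, only chk-2 was called, in both strains. CHK-2 is the kinase that starts pairing and break formation, and its gene went from 36.2, 34.3 and 27.8 CPM to 22.2, 21.4 and 14.6 CPM in N2 (-0.76 ± 0.21, adjusted p = 0.00697). The daf-2 change was -0.60 ± 0.21 (adjusted p = 0.0277). The polo-like kinase gene plk-2 (-0.64 ± 0.38 and -0.44 ± 0.38) and sun-1, whose product spans the inner nuclear membrane at pairing centres (-0.69 ± 0.29 and -0.50 ± 0.29), did not pass and did with the block. With it, adjusted p was 0.00351 and 0.0463 for plk-2 and 0.000137 and 0.00373 for sun-1. The gene pch-2, an ATPase that remodels HORMA proteins, was nearly level, with 81.8, 93.0 and 66.8 CPM at day 1 in N2 and 88.0, 74.3 and 76.3 CPM at day 11 (-0.02 ± 0.18, adjusted p = 0.947).

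**Figure D2:**
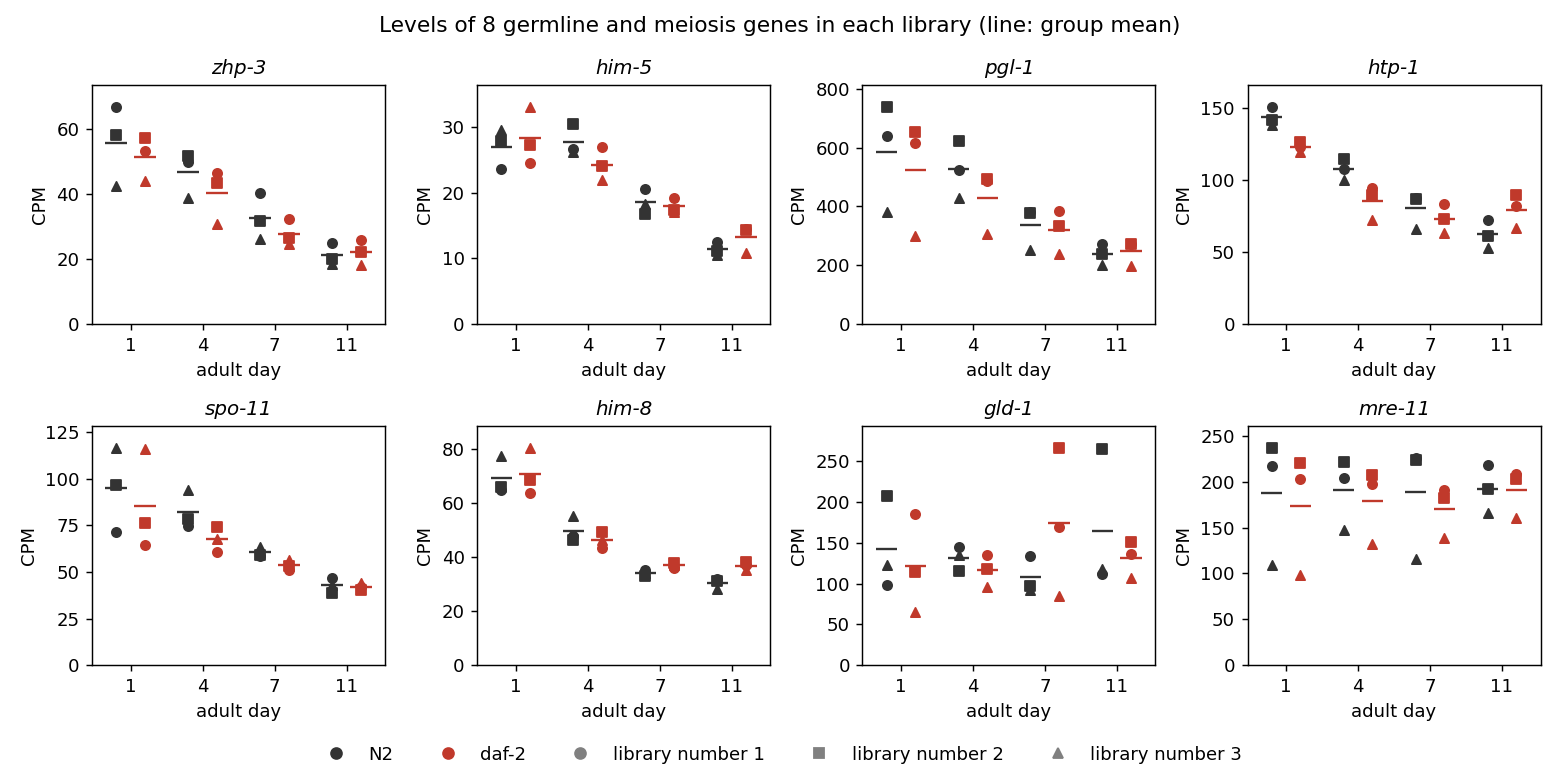
Level in CPM (y axis, from 0) of 8 genes in every library by adult day (x axis), N2 dark and daf-2 red, with the library number as the symbol and the group mean as a line. The 6 genes zhp-3, him-5, pgl-1, htp-1, spo-11 and him-8 end lower than they begin in both strains, and gld-1 and mre-11 do not.

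Few of the genes fell early. Between days 1 and 4 only him-8 fell in N2 (-0.48 on the log2 scale), where 6.08% of all genes fell, and only him-8 (-0.61) and htp-1 (-0.52) fell in daf-2, against 5.02%. With the library number as a block 6 fell in N2 and 8 in daf-2 by day 4. The N2 samples of these comparisons did not meet the rule for pairing by number. Shares of all genes are from the fit without the block. By day 7, 14 had fallen in N2, against 13.1% of all genes, and 12 in daf-2, against 12.7% (24 and 28 with the block). One library decided some of these counts. In N2 the day 7 count was 6, 9 and 5 without day 1 library 1, day 1 library 2 and day 7 library 3, and none fell at day 4 without day 1 library 3 or day 4 library 1 or 2. In daf-2, 1 fell at day 4 without any single day 1 library or day 4 library 2 or 3. From day 4 to day 11, 17 fell in N2, against 12.2%, and 6 in daf-2, against 8.3% (33 and 17 with the block). The N2 count was 11 without day 4 library 1 or 2, or day 11 library 2 or 3. Groups did not overlap for 26 genes in N2 (20.5% of all genes in that direction) and for 8 in daf-2 (15.9%) in that last interval.

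The group means show when the levels turned. In N2 the mean of 25 genes was lower at day 4 than at day 1, that of all 37 was lower at day 7 than at day 4, and that of 33 was lower at day 11 than at day 7. In daf-2 these numbers were 32, 36 and 21. The highest mean was at day 1 for 24 genes and at day 4 for 11 in N2, among them glp-1, rec-8, lab-1 and syp-2. In daf-2 it was at day 1 for 31 and at day 4 for 4. The lowest mean was at day 11 for 33 genes in N2, and in daf-2 at day 11 for 20 and at day 7 for 16. Individual genes followed different courses. The crossover gene zhp-3 in N2 was at 49.7, 51.7 and 38.6 CPM at day 4 and at 40.2, 31.6 and 25.98 CPM at day 7, between its day 1 and day 11 levels. The break gene him-5 was level at first, with 26.8, 30.5 and 26.3 CPM at day 4, and dropped afterwards to 20.55, 16.9 and 18.3 CPM at day 7. Its fall from day 4 to day 11 was -1.29 ± 0.16 in N2 (adjusted p = 8.45e-06) and -0.88 ± 0.16 in daf-2 (adjusted p = 0.000512). The Notch receptor gene glp-1 had its highest N2 values at day 4 (519.7, 558 and 362 CPM), and the day 11 libraries lay below all of these, although the change did not pass (-0.66 ± 0.30, adjusted p = 0.105). Whether these timings differ between the strains was not tested beyond the strain by age comparisons below.

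**Figure D3:**
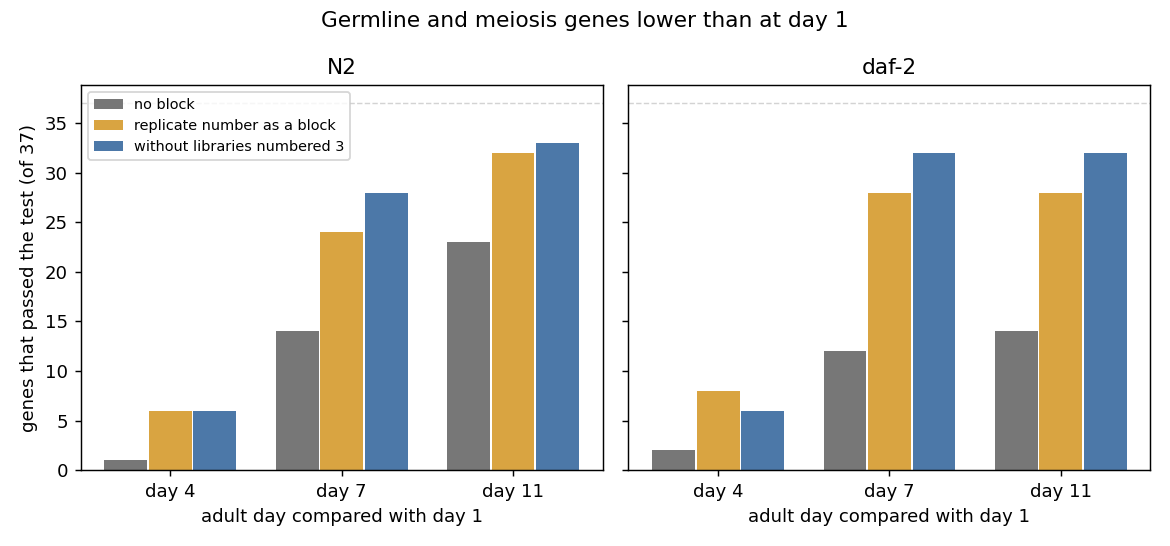
Number of the 37 genes that passed the test in each age comparison (y axis), for N2 and daf-2, with all libraries, with the library number as a block, and without the libraries numbered 3. With all libraries the counts against day 1 are 1, 14 and 23 in N2 and 2, 12 and 14 in daf-2, and each is larger in the other 2 analyses. No share of all genes is shown for those 2.

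Strains were compared at each age. By the quasi-likelihood test of edgeR, with p adjusted by Benjamini-Hochberg, none of the 37 differed between daf-2 and N2 at day 1, 4, 7 or 11, where 1.75%, 1.93%, 2.1% and 3.95% of all genes did. At an unadjusted p under 0.05 there were 0, 2, 1 and 2 genes, and DESeq2 called none at any of these ages. Same-numbered libraries deviated together in these samples, which is the only ground for pairing them by number. With the library number as a block 3 genes passed at day 11, each higher in daf-2. They were fbf-1 (0.42 ± 0.10, adjusted p = 0.0141), fbf-2 (0.45 ± 0.11, adjusted p = 0.0149) and htp-1 (0.35 ± 0.10, adjusted p = 0.0237). Without the block the values were alike in size but not called, with 0.43 ± 0.32 (adjusted p = 0.669) for fbf-1. The 3.95% of all genes at day 11 is also from the fit without the block.

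Leanings between the strains were small. The median log2 difference of the 37, daf-2 against N2, was -0.11, -0.22, -0.14 and 0.12 at days 1, 4, 7 and 11. At day 4 all 37 values were negative, between -0.39 for syp-4 and -0.01 for chk-2, and 28 genes were lower in daf-2 in 3 of 3 same-numbered pairs, against 25.6% of all genes. At day 11, 30 values were positive, and 17 genes were higher in 3 of 3 pairs, against 28.9% of all genes. The 95% intervals lay within 2-fold in both directions for 36, 34, 35 and 33 of the 37 at the 4 ages. At day 1 the largest difference was that of zim-3 (122, 116.5 and 60.8 CPM in N2 against 91.6, 96.6 and 54.04 CPM in daf-2, -0.31 ± 0.28, adjusted p = 1), and the strains overlapped.

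Whether age acted differently in the strains was tested as strain by age. In the fit of 8 group means none of the 37 was called. From day 1 to day 4 no gene of any kind was called (0% of all genes, with 0 of the 37 at an unadjusted p under 0.05), and from day 1 to day 11 0.347% of all genes were. In the later interval 1 of the 37 had an unadjusted p under 0.05, and DESeq2 called none in either. The largest values were -0.40 ± 0.25 for lab-1 to day 4 and 0.67 ± 0.43 for fbf-2 to day 11 (adjusted p = 1 and 0.855). To day 11, 34 of the 37 values were positive, that is, the fall was smaller in daf-2, with a median of 0.20 against -0.00 for all genes. The 95% intervals were wide, and only 18 of 37 lay within 2-fold in both directions.

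Other genes of the same pathways were counted for day 11 against day 1, in N2 and then in daf-2, where 19.2% and 18% of all genes fell and 22.5% and 22.3% rose. Of 26 further P granule and small RNA genes, 10 and 5 fell (38.5% and 19.2%) and 1 rose in each. The P granule gene pgl-3, partner of pgl-1, fell in both strains (-1.46 ± 0.40 and -1.04 ± 0.40), and meg-2, a gene of embryonic P granules, rose from means of 17.6 and 17.8 CPM to 43.2 and 38.3 CPM. Of 26 further genes listed with the axis, cohesin and synaptonemal complex, 11 and 9 fell (42.3% and 34.6%) and 1 rose in each. The list also holds genes of other structures, such as the dynein light chain gene dlc-1, which fell in daf-2 (-0.93 ± 0.12). Among the 26 genes cra-1 fell in both strains (-1.06 ± 0.26 and -0.67 ± 0.26), and syp-5, another synaptonemal complex gene, fell in N2 (-0.98 ± 0.31).

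Of 49 further break, repair and crossover genes, 15 fell in N2 and 9 in daf-2 (30.6% and 18.4%, the latter near the share of all genes), and 1 rose in each. In N2 the Bloom helicase gene him-6 (-1.29 ± 0.36), the partner of msh-5 listed as him-14 (-1.18 ± 0.23) and the break formation gene dsb-3 (-1.12 ± 0.20) fell. Of 27 checkpoint and apoptosis genes, 12 and 8 fell (44.4% and 29.6%) and 2 rose in each. The gene gla-3, which limits germ cell death, fell from a mean of 94.1 to 38.3 CPM in N2 (adjusted p = 0.00423) and from 80.1 to 35.0 CPM in daf-2.

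The shares of replication and proliferation genes that fell were near or below those of all genes. Of 28 DNA replication and cell cycle genes 5 and 4 fell (17.9% and 14.3%) and none rose, with medians of -0.03 and -0.11. The replication origin gene orc-1 fell in both strains (-0.90 ± 0.22 and -0.76 ± 0.22), and the ribonucleotide reductase gene rnr-1 fell by 0.48 and 0.60 on the log2 scale. Of 33 further proliferation and meiotic entry genes, 6 and 2 fell (18.2% and 6.06%) and 5 rose in each (15.2%). The sperm fate gene fog-1 rose from a mean of 16.5 to 58.3 CPM in N2 (1.82 ± 0.37, adjusted p = 0.00054) and from 16.1 to 90.1 CPM in daf-2 (2.48 ± 0.38, adjusted p = 3.36e-05). The RNA polymerase gene ego-1, which promotes germline proliferation, fell from 297 to 134 CPM in N2 (-1.15 ± 0.23) and from 276 to 159 CPM in daf-2 (-0.79 ± 0.23).

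Markers of other cells moved with age as well, and their part in these results was not tested. All 6 body muscle markers fell in both strains, with medians of -2.47 and -2.87, and 4 of 6 intestine markers fell in each. Of 17 oocyte and eggshell markers, 2 rose in N2, and in daf-2 1 rose and 1 fell. Their summed level was between 4996 and 10980 CPM at day 1 and between 7052 and 8077 CPM at day 11 in N2, while that of the 37 genes went from 3262 to 5341 CPM down to 2357 to 3147 CPM. In daf-2 the 37 summed to between 2917 and 4815 CPM and then to between 2411 and 3209 CPM. The day 11 range overlapped the day 1 range in daf-2, through the day 1 library numbered 3, but not in N2. Zygotic embryo markers summed to between 132 and 212 CPM at day 1 and between 81.4 and 134 CPM at day 11 in N2, and 2 of 12 fell and 1 rose. Of the 15 embryo markers listed, 4 were at 0 in at least 1 library, and the rest were detected in all 24. Among these 4, the genes med-1 and med-2 were at 0 in 12 and 5 of 24 libraries.

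**Figure D4:**
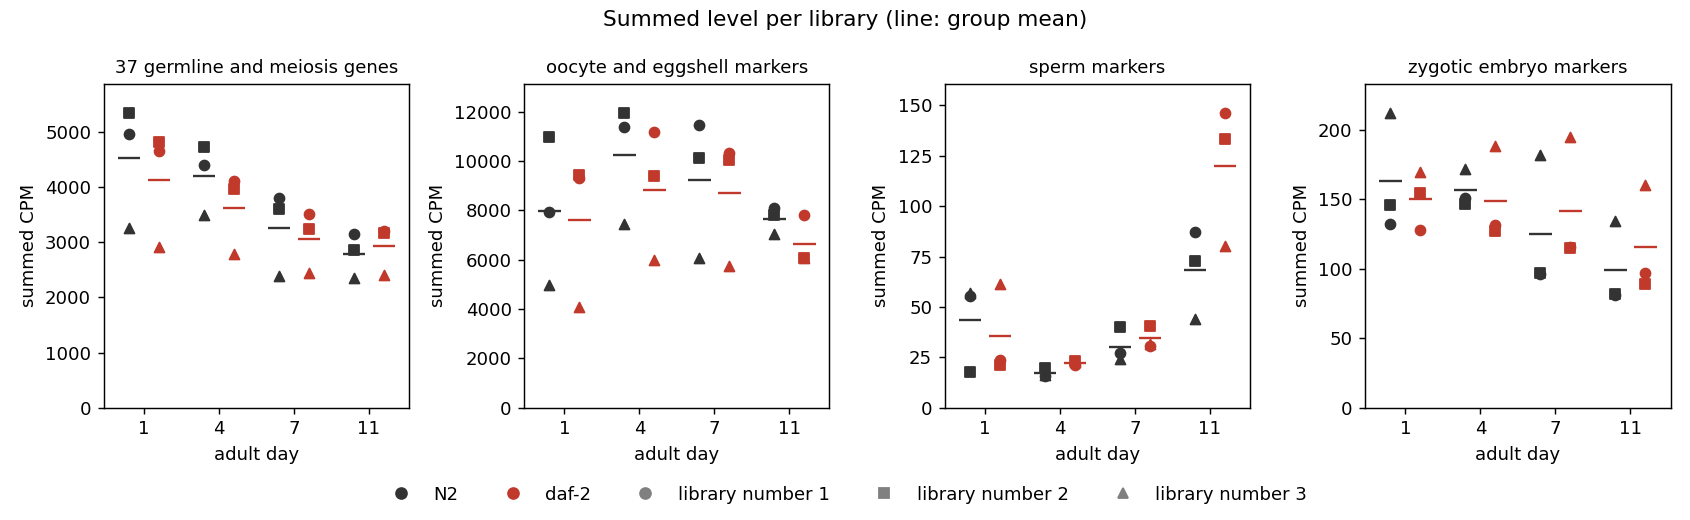
Summed CPM (y axis) by adult day (x axis) in every library for the 37 genes and for oocyte and eggshell, sperm and zygotic embryo markers, with N2 dark and daf-2 red. In each group the library numbered 3 is lowest for the 37 genes and for the oocyte markers and highest for the embryo markers.

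The libraries numbered 3 were low for most of these genes but not for all of them, and transcript length moved with this. The median gene lay between 0.21 and 0.52 below its group mean on the log2 scale in these libraries. Among the 19 genes with at least 2044 exon bases all were below it on average, with a median of -0.42. Of the 18 shorter genes 14 were below it, with a median of -0.23, and the 4 above it were syp-3, spo-11, lab-1 and him-8. Across the 37 genes Spearman's rho between exon length and this deviation was -0.53, and across 15750 protein-coding genes it was -0.23. Genes of one library share its depth and quality, so these are descriptions.

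Calls with age were counted on both sides of the same division by length. Of the 18 shorter genes 13 fell in N2 and 11 in daf-2, and of the 19 longer ones 10 and 3 did. The median changes were -0.86 and -0.69 in N2 and -0.70 and -0.44 in daf-2, and rho between exon length and the change was 0.25 and 0.44. Over all protein-coding genes the shortest of 3 equal length classes had 21.9% and 23.6% of genes lower and the longest 17.8% and 13.7%. With the length correction the falls of zhp-3, him-5, pgl-1 and spo-11 were larger in both strains, at -1.58 for zhp-3 in N2. This correction also removes shifts of a library that are common to all lengths. In N2 the short gene lab-1 (869 bases) went from -0.47 to -0.59 and the long gene glp-1 (4326 bases) from -0.41 to -0.55. What part of the larger falls goes with length was not tested. The counts with the correction were 30 in N2 and 16 in daf-2, and 34 and 32 with the block as well. No share of all genes from these fits is given.

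**Figure D5:**
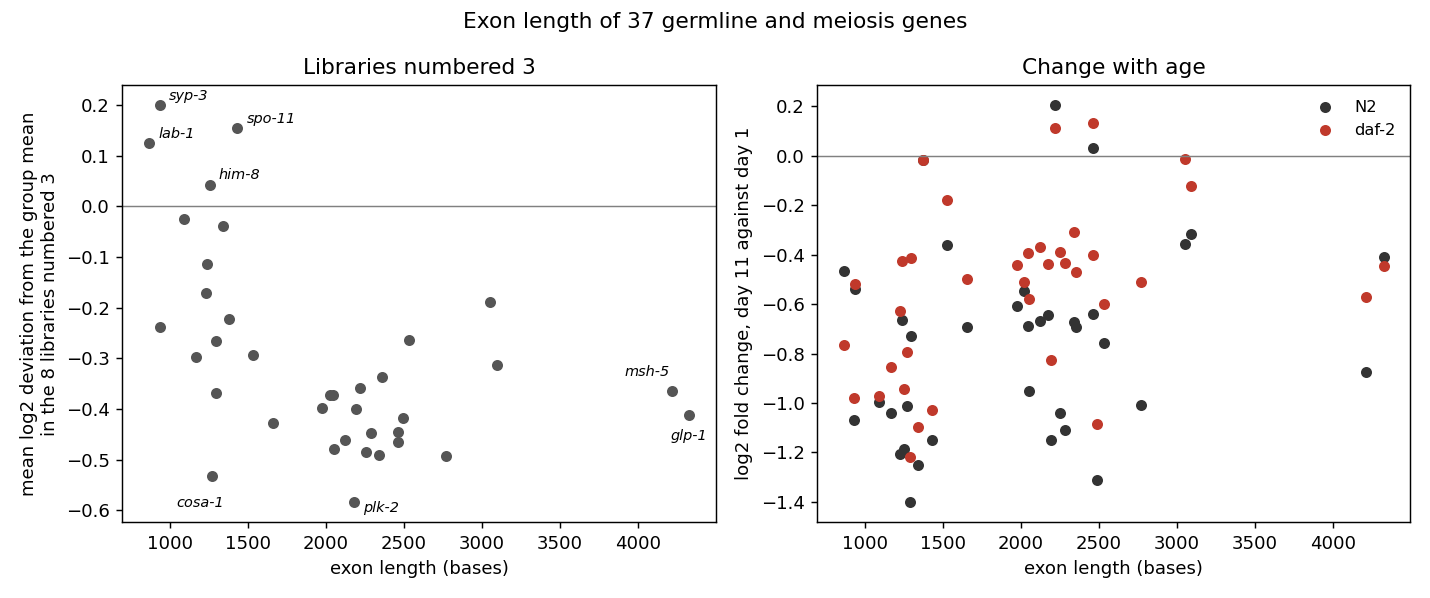
Exon length in bases (x axes) of the 37 genes against their mean log2 deviation from the group mean in the 8 libraries numbered 3 (left) and against the log2 change from day 1 to day 11 in N2 (dark) and daf-2 (red, right). The 4 genes above 0 on the left, syp-3, spo-11, lab-1 and him-8, are all among the shorter ones.

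Position on the chromosomes was not used to choose the genes. None of the 37 genes lies on the X chromosome, which holds 14.2% of the tested protein-coding genes. Chromosome IV holds 13 of them, 35.1%, against 16.9% of tested genes, and the 4 pairing centre genes form a single run there. The genes pgl-1 and him-3 are neighbours as well, with pgl-1 ending at 6977318 and him-3 starting at 6977508 on IV. Both fell in both strains.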

How the data were processed

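The authors deposited expected counts per gene for each library, which need not be whole (929 to 1198 values per library were not), and these were rounded here. Per the submitters' processing notes, STAR 2.7.0e, RSEM 1.3.1, WBcel235 and ce11 were used, with no step given. Per the labels' protocols, libraries were stranded and ribosomal RNA was depleted. Whether counting used strand is not given in the sources used here. RSEM divides reads between near-identical copies.

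Identifiers were matched to Ensembl 115 (46817 of 46904). A model of 8 group means over 24 libraries was fitted with edgeR 4.0.16 (TMM, filterByExpr, quasi-likelihood test, Benjamini-Hochberg over 16698 genes, false discovery rate 0.05) in R 4.3.3, after tests on simulated data. Intervals at 95% used 16 degrees of freedom. The members, lists and tests were chosen with earlier results of these data known. Library values are printed by rule for the 4 largest called changes per comparison with day 1 at a mean of 5 CPM or more, or the largest change if none was called, and for others to show the spread. In the other lists up to 3 of the most changed called genes were eligible to be named, and cbd-1, glh-3, med-1 and med-2 were chosen after their values were seen. The symbols smc-1, pqn-85, mels-3, ieh-1, msh-4, brca-2 and opt-2 matched no gene. Same-numbered libraries deviated together (every correlation above 0.1) in N2 at day 11 against day 1, in all age comparisons of daf-2 and between strains, so the library number was taken to pair them there. Alternatives included DESeq2 1.42.0. Protein and promoter sequences were not used here.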

Additional observations from a re-analysis of the deposited data

How the results depend on the processing

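All genes of the list were recomputed in the other settings, and how many calls at day 11 held in every setting is given below. The values counted here are only those of the changes picked by rule, the largest called ones, or the largest if none was called. Of these 216 values, 212 kept their direction and their side of the threshold, none reversed and none was lost. Other genes with printed library values, such as lab-1 in N2, are not among these values, which therefore do not stand for all calls. The other 4 passed only with the library number as a block: fbf-1 between strains at day 11 (0.42, or 0.45 with the length correction) and fbf-2 for strain by age (0.70, or 0.72). Of 250 recomputed counts 192 were within 1.5 times the reported one.

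With the replicate block, counts of genes called became 6, 24 and 33 in N2 (day 4 and day 7 against day 1, day 11 against day 4, where the numbers did not pair the samples by the rule used), 8, 28, 28 and 17 in daf-2 (day 4, 7 and 11 against day 1, day 11 against day 4), 3 between strains at day 11 and 3 for strain by age to day 11, where the numbers did not pair either. Without the libraries numbered 3 they were 6, 28 and 33 in N2 and 6, 32, 32 and 20 in daf-2, where 1 of the 20 was higher. A fit of only the groups compared gave 0, 2 and 26 in N2 and 0 and 5 at days 4 and 7 in daf-2. Library size alone gave 0 and 7 at days 4 and 7 in N2 and 3 for daf-2 at day 11 against day 4. At day 4 in N2, upper-quartile scaling gave 2, no filter 0 and the 1 CPM filter 2. The length correction gave 26 for N2 at day 11 against day 4 and 1 for daf-2 at day 4. Combined with the block it gave 6, 29 and 34 in N2, 11, 33, 32 and 22 in daf-2, 4, 1 and 5 between strains at days 4, 7 and 11, and 3 for strain by age to day 11. The cause of these moves was not tested. No share of all genes from these fits is given, here or for the left-out libraries below. These counts therefore show how far the calls depend on the fit, and are not set against all genes.

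Leaving out each library in turn gave 0 to 1, 5 to 14, 12 to 30 and 11 to 19 in N2 (days 4, 7 and 11 against day 1, day 11 against day 4), 1 to 2, 8 to 14, 10 to 19 and 4 to 8 in daf-2, and 0 to 0 between strains and for strain by age. At day 11 against day 1, 12 of the 23 N2 calls and 10 of the 14 daf-2 calls were made in every one of 17 settings. Counts over all genes at day 11 against day 1 in N2 were 6958, of which 3750 were higher, 4570 of 6984 with upper-quartile scaling and 4893 of 7044 with library size alone. These 2 scalings moved the median of all genes from 0.10 to 0.28 and 0.33 in N2 and that of the 37 from -0.69 to -0.50 and -0.45, so falls should be read against those medians.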

Other observations

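Many sperm markers rose late in life. From day 4 to day 11, 16 of 20 tested sperm markers rose in N2 and 18 in daf-2, and none fell, where 17.4% and 12% of all genes rose. Their summed level was between 15.7 and 19.7 CPM at day 4 in N2 and between 44.2 and 87.5 CPM at day 11, and between 21.5 and 23.5 CPM and then 80.5 and 146 CPM in daf-2. At day 1 it was between 17.6 and 56.9 CPM in N2. From day 1 to day 4, 12 of the 20 fell and 1 rose in N2, and 9 fell in daf-2. Of all genes 6.08% and 5.02% fell then. From day 1 to day 11 only 5 markers rose and 1 fell in N2, and 8 rose in daf-2, where 22.5% and 22.3% of all genes rose. The median log2 change of the 20 was 0.07 in N2 and 1.48 in daf-2. Over this interval fer-1 rose from a mean of 1.25 to 11.1 CPM in N2 (3.13 ± 0.53, adjusted p = 8.8e-05 by edgeR) and from 1.23 to 16.8 CPM in daf-2. The sperm calcium channel gene spe-41 rose from 4.13 to 27.04 CPM in N2 and from 7.29 to 29.2 CPM in daf-2. At day 11 the median log2 difference of the sperm markers, daf-2 against N2, was 1.62, and the summed levels of the strains overlapped.

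Of the 17 oocyte and eggshell markers, 2 rose from day 1 to day 11 in N2, and in daf-2 1 rose and 1 fell. The eggshell gene perm-4 rose over this interval from a mean of 134 to 529 CPM in N2 (1.98 ± 0.30, adjusted p = 2.21e-05) and from 178 to 381 CPM in daf-2 (1.09 ± 0.29, adjusted p = 0.00506). The eggshell gene perm-2 rose in N2 (1.33 ± 0.26). The chitin synthase gene chs-1, which makes the eggshell's middle layer, fell in daf-2 from 831 to 422 CPM (-0.98 ± 0.37, adjusted p = 0.0411).

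On the X chromosome, which holds none of the 37 genes, the median log2 change from day 1 to day 11 was 0.40 in N2 and 0.18 in daf-2, the highest of the 6 chromosomes in each strain, and 13.2% and 16.4% of its genes fell.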
